A study of Mus musculus with 6 samples.

Results

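The enzymes that write, copy and erase DNA methylation and the core of Polycomb repressive complex 2 (PRC2) were followed in the mouse Sertoli cell line TM4 through 10 genes: Dnmt1, Uhrf1, Dnmt3a, Dnmt3b, Ezh2, Eed, Suz12, Tet1, Tet2 and Tet3. The genes were chosen by symbol, and all 10 of them were found among the 24354 genes of the table. The 6 RNA-seq libraries comprised 3 from cells exposed to aluminium chloride (AlCl3) at 100 nM for 30 days and 3 from control cells. Libraries of both groups were labelled day 30 and came from the same line in the same serum-containing medium. No vehicle is named for the controls, and nothing in the labels tells separate cultures from technical replicates. The p-values therefore reflect the scatter among these libraries, possibly technical.

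In mammals, DNMT1 copies methylation onto new DNA strands during replication, and UHRF1 brings it to sites where a single strand is methylated. DNMT3A and DNMT3B place methylation at unmethylated sites, and the TET enzymes oxidise methylcytosine as a step in its removal. PRC2 methylates histone H3 at lysine 27 through EZH2 or its relative EZH1, with EED and SUZ12 among the other core subunits. Dnmt1, Uhrf1 and Ezh2 are known as genes transcribed more in dividing cells, through E2F factors among others, while Ezh1 is known as the form kept by cells that have stopped dividing.

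Reads in genes, recovered from the steps of the FPKM values (fragments or reads per kilobase of exon, scaled to library size), ranged from 13508308 in AlCl3 2 to 17512978 in AlCl3 1. Markers that define Sertoli cells were low in both groups, with Wt1 at 0.0163 FPKM in AlCl3 and 0.146 FPKM in control, Amh at 0.173 FPKM in AlCl3 and 0.0470 FPKM in control, and Sox9 at 1.61 FPKM in AlCl3 and 1.01 FPKM in control. Of 13 Sertoli markers measured 6 were tested, 4 of them lower in AlCl3 and 2 higher. These are 66.7% lower and 33.3% higher, against 30.2% and 31.2% of all genes tested. The summed level of the 13 was 374 to 415 FPKM in AlCl3 and 270.1 to 389 FPKM in control, most of it Vim. The extraction text speaks of retinas, and 6 measured retina markers summed to 0.0997 to 0.261 FPKM in AlCl3 libraries and 0.110 to 0.194 FPKM in control libraries. Leydig cell markers summed to 0.572 to 0.934 FPKM in AlCl3 and 0.683 to 1.20 FPKM in control, with Cyp11a1 at 0.0238 FPKM in AlCl3 and 0.00418 FPKM in control. Germ cell markers summed to at most 0.204 FPKM in any library of either group, and macrophage and leukocyte markers to between 0.935 and 1.49 FPKM in AlCl3 and between 1.14 and 1.81 FPKM in control, most of it Cd68. Smooth muscle and peritubular markers summed to 171 to 199 FPKM in AlCl3 and 445 to 472 FPKM in control, almost entirely Acta2, with Myh11 at 0.00828 FPKM in AlCl3 and 0.00524 FPKM in control. The part of these markers in the results was not tested.

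For each of the 3 genes with the largest rises, the promoter window that holds a word of the E2F binding consensus is shown. The other windows of Uhrf1 (chr17:56303087-56303386) and Dnmt1 (chr9:20952930-20953229 and chr9:20959839-20960138) hold no such word and are not shown. Windows run from 250 bases before to 50 bases after an annotated start (RefSeq, GRCm38.p6). Capitals mark the words TTTCCCGC, TTTGGCGC, TTTCGCGC and TTTGCCGC on either strand.
Uhrf1, chr17:56304063-56304362, plus strand: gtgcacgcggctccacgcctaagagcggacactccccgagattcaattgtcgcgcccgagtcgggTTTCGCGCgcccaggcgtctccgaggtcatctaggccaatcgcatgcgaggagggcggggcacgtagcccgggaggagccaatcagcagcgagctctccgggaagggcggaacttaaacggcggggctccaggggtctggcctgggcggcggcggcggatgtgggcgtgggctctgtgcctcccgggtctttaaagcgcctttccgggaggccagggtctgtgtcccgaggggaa
Ezh2, chr6:47594981-47595280, minus strand: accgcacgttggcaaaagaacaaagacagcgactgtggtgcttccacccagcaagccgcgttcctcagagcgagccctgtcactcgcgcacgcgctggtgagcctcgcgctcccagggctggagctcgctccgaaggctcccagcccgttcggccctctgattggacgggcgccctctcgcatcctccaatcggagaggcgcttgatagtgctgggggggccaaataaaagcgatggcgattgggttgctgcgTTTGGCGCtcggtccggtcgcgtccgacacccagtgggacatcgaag
Dnmt1, chr9:20952574-20952873, minus strand: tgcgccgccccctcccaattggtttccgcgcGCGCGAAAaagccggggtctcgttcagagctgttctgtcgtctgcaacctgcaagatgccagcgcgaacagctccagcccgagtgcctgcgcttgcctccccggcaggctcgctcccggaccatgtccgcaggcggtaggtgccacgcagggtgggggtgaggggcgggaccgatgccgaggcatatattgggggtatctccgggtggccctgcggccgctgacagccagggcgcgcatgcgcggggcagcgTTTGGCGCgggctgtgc
A window of Suz12 held a word as well, TTTCCCGC, so that 4 of the 10 genes and 4 of their 15 windows had at least 1. Of all 32817 windows of this length 2.26% held such a word, and of the 14258 windows with at least 10 CG dinucleotides 4.50% did. The windows shown have 33 CG dinucleotides for Uhrf1, 31 for Ezh2 and 33 for Dnmt1. A match describes these letters alone.

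Both genes of maintenance methylation rose. Uhrf1 (ENSMUSG00000001228, chromosome 17, 56303321 to 56323486, plus strand, GRCm38) measured 60.9, 71.2 and 68.0 FPKM in AlCl3 1 to 3, against 15.8, 19.14 and 19.8 FPKM in control 1 to 3. Every AlCl3 library lay above every control library, and the lowest AlCl3 value was far above the highest control value. The means of 66.7 ± 5.25 FPKM in AlCl3 and 18.2 ± 2.15 FPKM in control (SD, n = 3 each) differed 3.66-fold, a log2 difference of 1.82 on FPKM + 1 (SE 0.13, 95% interval 1.53 to 2.11, limma, Benjamini-Hochberg adjusted p = 5.7e-06). A processed pseudogene, Gm5648, matches Uhrf1 at 98.3% over 1590 bases, but held 79 reads in AlCl3 and 16 in control, against 13662 in AlCl3 and 3956 in control for Uhrf1 itself.

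Dnmt1 (ENSMUSG00000004099, chromosome 9, 20907209 to 20959888, minus strand) measured 34.8, 36.0 and 40.1 FPKM in AlCl3 1 to 3, against 15.9, 21.9 and 21.6 FPKM in control 1 to 3. The groups did not overlap, and control 1 was the lowest of the 6 libraries. The mean was 36.9 ± 2.75 FPKM in AlCl3 and 19.8 ± 3.37 FPKM in control (SD, n = 3 each), a 1.86-fold rise and a log2 difference of 0.88 (SE 0.14, limma adjusted p = 6.1e-04). Uhrf1 over Dnmt1, an FPKM ratio taken within each library and so untouched by library scaling, was 1.81 in AlCl3 and 0.924 in control (geometric means). These ratios ran from 1.70 to 1.98 in AlCl3 and from 0.873 to 0.989 in control, without overlap.

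The genes that place new methylation were expressed at low levels and went in opposite directions in their values. Dnmt3b (ENSMUSG00000027478, chromosome 2, 153649450 to 153687730, plus strand) measured 1.10, 0.908 and 1.22 FPKM in AlCl3 1 to 3, against 0.661, 0.626 and 0.642 FPKM in control 1 to 3. The groups did not overlap, but its mean over all libraries was below 1 FPKM, the minimum for testing. With no filter on low values its log2 difference was 0.34 (limma adjusted p = 0.042), and with limma-voom on the recovered reads, 63 to 107 per library in AlCl3 and 54 to 57 in control, it was 0.74 (adjusted p = 0.012).

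Dnmt3a (ENSMUSG00000020661, chromosome 12, 3806007 to 3914443, plus strand) measured 0.860, 0.916 and 1.16 FPKM in AlCl3 1 to 3, against 1.19, 1.605 and 1.29 FPKM in control 1 to 3. All AlCl3 values lay below all control values, though AlCl3 3 and control 1 were close. The log2 difference of -0.25 (SE 0.13, 95% interval -0.55 to 0.04) did not pass in the test on log2(FPKM + 1) (limma adjusted p = 0.12). On that scale a gene near 1 FPKM moves little: limma-voom on its recovered reads, 207 to 332 per library in AlCl3 and 329 to 451 in control, gave -0.47 with an adjusted p of 0.034. Once the trend with GC content and length was taken out, the difference was -0.11 (adjusted p = 0.31). In control Dnmt3a stood above Dnmt3b in each library, whereas in AlCl3 their values overlapped.

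**Figure D1:**
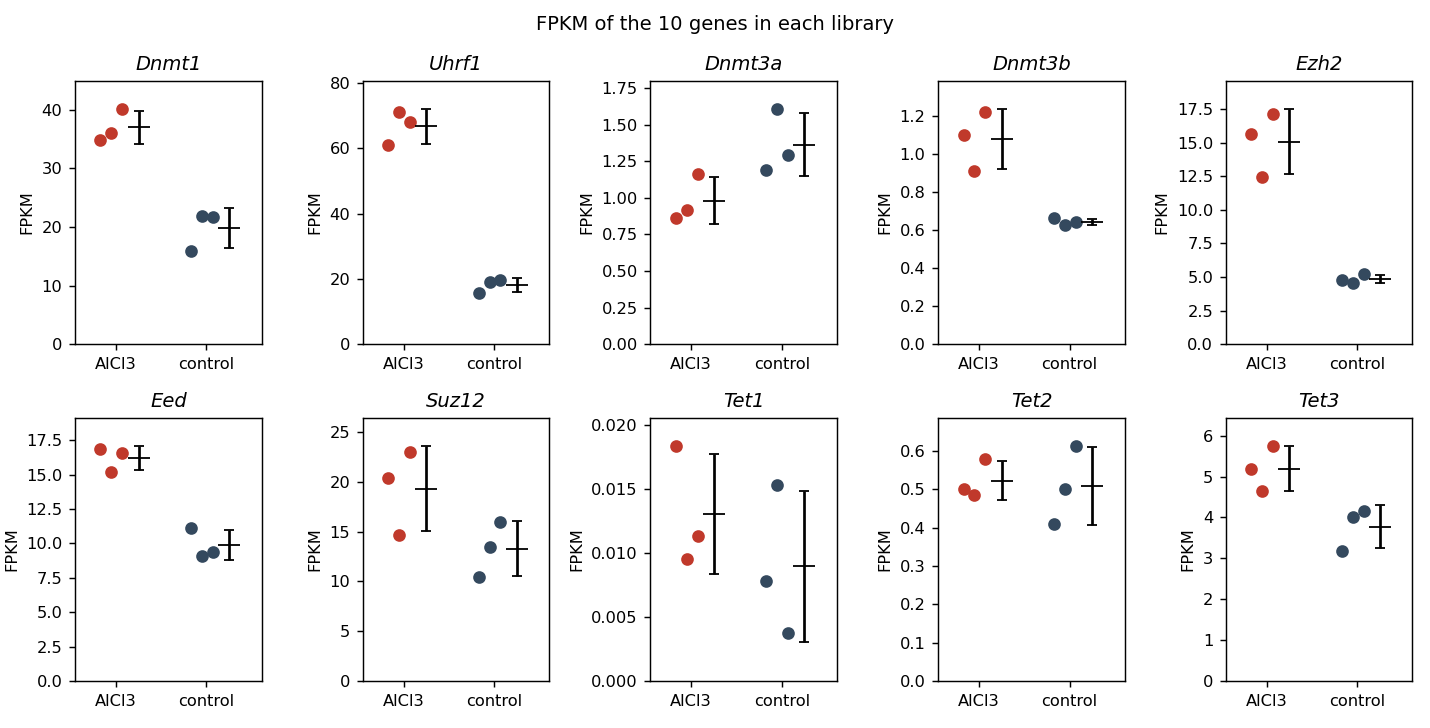
FPKM (y axis, from 0, a scale of its own in each panel) of the 10 genes in the 3 AlCl3 and 3 control libraries; points are libraries and bars the mean ± SD (n = 3). The AlCl3 points lie above all control points for Uhrf1, Dnmt1, Dnmt3b, Ezh2, Eed and Tet3, below them for Dnmt3a, and overlap them for Suz12, Tet1 and Tet2.

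Of the PRC2 core genes, that of the catalytic subunit had the largest log2 difference. Ezh2 (ENSMUSG00000029687, chromosome 6, 47530139 to 47595341, minus strand) measured 15.6, 12.4 and 17.2 FPKM in AlCl3 1 to 3, against 4.75, 4.58 and 5.21 FPKM in control 1 to 3. The groups lay far apart, with a tight control group and AlCl3 2 as the lowest of the AlCl3 libraries. The mean of 15.1 ± 2.41 FPKM in AlCl3, against 4.85 ± 0.326 FPKM in control (SD, n = 3 each), was 3.11-fold higher (log2 difference 1.45, SE 0.14, limma adjusted p = 2.5e-05).

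Eed (ENSMUSG00000030619, chromosome 7, 89954654 to 89980983, minus strand), whose protein binds methylated lysine 27, measured 16.9, 15.2 and 16.5 FPKM in AlCl3 1 to 3, against 11.1, 9.11 and 9.35 FPKM in control 1 to 3. The groups did not overlap, and the rise of 1.64-fold (log2 difference 0.67, SE 0.12, limma adjusted p = 0.0010) was larger than the spread within either group. Suz12 (ENSMUSG00000017548, chromosome 11, 79993106 to 80034123, plus strand), the scaffold subunit gene, measured 20.4, 14.6 and 23.0 FPKM in AlCl3 1 to 3, against 10.4, 13.4 and 15.9 FPKM in control 1 to 3. Its groups overlapped, since AlCl3 2 lay below control 3, and it passed narrowly (log2 difference 0.51, SE 0.19, limma adjusted p = 0.044). The Suz12 call was lost without AlCl3 1 (adjusted p = 0.12), AlCl3 3 (0.15), control 1 (0.14) or control 2 (0.086), with no filter (0.13) and once the GC and length trend was taken out, where its difference was 0.14 (adjusted p = 0.49).

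Ratios within libraries set Ezh2 against its partners. The FPKM ratio of Ezh2 over Suz12 was 0.787 in AlCl3 and 0.371 in control, and that of Ezh2 over Eed was 0.923 in AlCl3 and 0.492 in control (geometric means of 3 libraries). The largest difference between groups was that against Ezh1, the alternative catalytic subunit gene, which measured 1.57, 1.59 and 2.21 FPKM in AlCl3 1 to 3, against 6.25, 6.80 and 7.24 FPKM in control 1 to 3. Ezh1 fell 3.78-fold (log2 difference -1.48, SE 0.13, limma adjusted p = 1.8e-05), with no overlap. Ezh2 over Ezh1 was thus 8.45 in AlCl3 (7.77 to 9.94) and 0.717 in control (0.672 to 0.761), an 11.8-fold change of the ratio: Ezh1 was the more abundant transcript per length in every control library and Ezh2 in every AlCl3 library. For each of the 6 ratios whose groups did not overlap the exact two-sided permutation test over libraries gave p = 0.1, the smallest that 3 against 3 allow, and 0.117 adjusted over the 7 ratios compared.

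**Figure D2:**
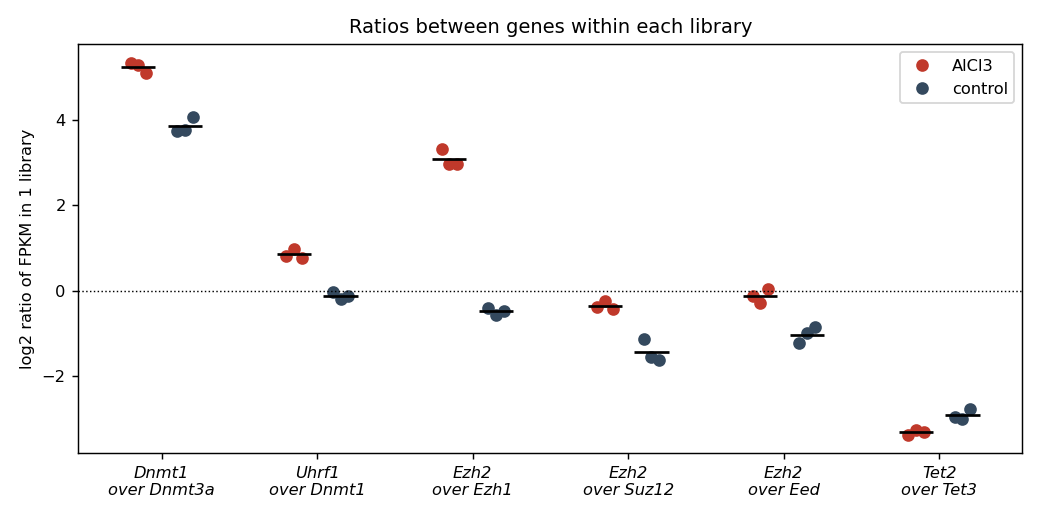
log2 of the FPKM ratio between 2 genes in the same library (y axis) for 6 gene pairs; points are the 3 AlCl3 and 3 control libraries, bars their means, and the dotted line equal levels per length. The Ezh2 over Ezh1 points lie above the line in AlCl3 and below it in control.

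The TET genes differed widely in level. Tet3 (ENSMUSG00000034832, chromosome 6, 83362373 to 83459084, minus strand), the most abundant TET gene, measured 5.18, 4.65 and 5.75 FPKM in AlCl3 1 to 3, against 3.17, 4.01 and 4.15 FPKM in control 1 to 3. The groups did not overlap, although AlCl3 2 and control 3 were near each other, and Tet3 rose 1.37-fold (log2 difference 0.38, SE 0.13, limma adjusted p = 0.033). The Tet3 call was lost without AlCl3 1 (0.092), AlCl3 3 (0.11), control 1 (0.080) or control 2 (0.063) and with no filter (0.071), while taking out the GC and length trend raised the difference to 0.57 (adjusted p = 2.6e-04).

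Tet2 (ENSMUSG00000040943, chromosome 3, 133463679 to 133545139, minus strand) measured 0.502, 0.484 and 0.580 FPKM in AlCl3 1 to 3, against 0.411, 0.502 and 0.613 FPKM in control 1 to 3. The groups overlapped fully, and limma-voom on its 111 to 168 reads per library in AlCl3 and 115 to 180 in control gave a log2 difference of 0.06, with a 95% interval of -0.38 to 0.49 (adjusted p = 0.82). Tet2 over Tet3 was 0.101 in AlCl3 and 0.134 in control, without overlap. Tet1 (ENSMUSG00000047146, chromosome 10, 62804570 to 62908996, minus strand) had 5, 2 and 3 reads in AlCl3 1 to 3 and 2, 4 and 1 reads in control 1 to 3, at most 0.0184 FPKM. This is about the level of 3 reads, 0.0110 to 0.0143 FPKM in AlCl3 and 0.0112 to 0.0117 FPKM in control, so a difference was not detectable at this depth.

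Read as levels per length, the order in AlCl3 was Uhrf1, Dnmt1, Suz12, Eed, Ezh2, Tet3, Dnmt3b, Dnmt3a, Tet2 and Tet1. In control, Dnmt1 stood above Uhrf1 and Dnmt3a above Dnmt3b, with the other places the same. The values of Uhrf1 and Dnmt1 overlapped in control and not in AlCl3, those of Suz12 and Eed overlapped in both groups, and those of Ezh2 overlapped both Suz12 and Eed in AlCl3 but lay below them in control. Dnmt3a and the TET genes have summed exon lengths of 15457 to 16870 bases, against 3828 to 7377 bases for the other genes, and dividing by all annotated exons can understate the level of genes of which a single shorter transcript is used.

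Of the 7 genes tested, 6 rose, 0 fell and Dnmt3a did not pass. Over all 11202 genes tested, 61.3% passed the same threshold (limma adjusted p under 0.05), 31.2% rising and 30.2% falling. The groups did not overlap in 5 of the 7 with AlCl3 higher and in 1 with AlCl3 lower, where 33.7% and 32.4% of all genes tested did so. The median log2 difference of the 7 genes was 0.67, against 0.03 over all genes tested. Uhrf1 ranked 180 of 11202 by log2 difference and Ezh2 ranked 439. With limma-voom on recovered reads, which could test 9 of the 10 genes, 7 rose and 1, Dnmt3a, fell, against 30.5% and 30.9% of 13040 genes.

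**Figure D3:**
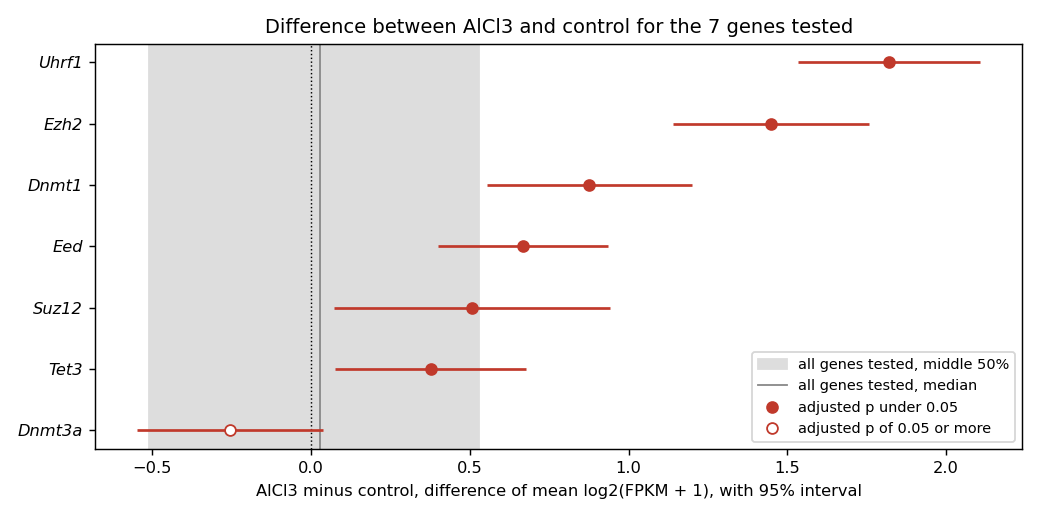
Difference of mean log2(FPKM + 1), AlCl3 minus control (x axis), for the 7 genes tested, with 95% intervals from limma; filled points passed the threshold, and the grey band is the middle 50% of all genes tested, from -0.51 to 0.53. Uhrf1, Ezh2 and Dnmt1 lie wholly to the right of the band.

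Genes of DNA replication were higher as well. All 16 S-phase genes of a list that held the replicative helicase genes, Pcna and nucleotide synthesis enzymes rose, where 31.2% of all genes tested did, with a median log2 difference of 1.90, and their summed level was 1036 to 1050 FPKM in AlCl3 libraries and 266 to 304 FPKM in control libraries. Rrm2, a ribonucleotide reductase subunit gene, was at 85.5 ± 4.69 FPKM in AlCl3 and 14.4 ± 0.791 FPKM in control (SD, n = 3 each), and Cdc6, a licensing factor gene, at 12.1 ± 1.85 FPKM in AlCl3 and 1.87 ± 0.121 FPKM in control. The part of the share of cells in S phase in the rises of Uhrf1, Dnmt1 and Ezh2 was not tested, and in bulk RNA more cells of one kind and more RNA per cell cannot be told apart. The genes whose deviations over the 6 libraries lay nearest to those of Uhrf1, by Euclidean distance on log2(FPKM + 1), were Mthfd1l (0.14), Gusb (0.20) and Mcm3 (0.22), where the median gene lay at 2.26. They were picked as the smallest distances in these same libraries, so their closeness is no test of a link to Uhrf1.

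Among 21 tested cofactors of DNA methylation, 9 rose, 3 fell and 9 did not pass, with a median log2 difference of 0.27. These are 42.9% higher and 14.3% lower, against 31.2% and 30.2% of all genes tested. Hells, a chromatin remodeller needed for DNA methylation in mouse, was at 19.8 ± 4.15 FPKM in AlCl3 and 4.86 ± 1.25 FPKM in control (SD, n = 3 each), 4.07-fold higher (log2 difference 1.83, limma adjusted p = 4.3e-05). Trim28, a corepressor that keeps imprinted sites methylated, rose by a log2 difference of 1.07 (1.64 once the GC and length trend was taken out), Dmap1, which encodes a DNMT1-binding protein, by 0.84, and Zbtb33, a reader of methylated DNA, by 0.92 (0.52 with that trend taken out). Uhrf2, the relative of Uhrf1, was at 13.7 ± 2.35 FPKM in AlCl3 and 12.01 ± 0.388 FPKM in control, a difference that did not pass (limma adjusted p = 0.32).

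The other PRC2 genes, Ezh1, Rbbp4, Rbbp7 and the accessory subunits, were divided. Of 9 tested, 5 rose, 2 fell, Ezh1 described above and Phf1, and 2 did not pass (median log2 difference 0.42), which is 55.6% higher and 22.2% lower, against 31.2% and 30.2% of all genes tested. The Polycomb-like genes, whose proteins guide PRC2 to chromatin, went in both directions: Mtf2 rose 3.70-fold to 7.83 ± 1.44 FPKM in AlCl3, against 2.12 ± 0.405 FPKM in control, and Phf19 rose 2.80-fold to 7.503 ± 0.282 FPKM, against 2.68 ± 0.405 FPKM in control (SD, n = 3 each; limma adjusted p of 5.0e-05 and 3.9e-05). Phf1, the other gene of that trio, fell 4.05-fold to 1.64 ± 0.204 FPKM in AlCl3, against 6.63 ± 0.942 FPKM in control (limma adjusted p = 1.7e-05), with -1.01 in place of a log2 difference of -1.53 once the GC and length trend was taken out. Phf1 shares 1370 exon bases with Cuta on the opposite strand, which had 2232 reads in AlCl3 and 5109 in control, against 274 in AlCl3 and 1179 in control for Phf1, and Mtf2 shares 395 with Tmed5, so both levels are less certain where counting ignored strand.

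The histone-binding subunit gene Rbbp7 rose 2.28-fold (log2 difference 1.18) and Aebp2 by a log2 difference of 0.60 (0.34 once the GC and length trend was taken out). Jarid2 rose by 0.42 (0.85 with limma-voom on recovered reads), a call lost without control 2 (limma adjusted p = 0.068). Without AlCl3 1 or without AlCl3 3 it fell below the minimum for testing. Rbbp4 was at 36.1 ± 1.26 FPKM in AlCl3 and 32.3 ± 1.42 FPKM in control (SD, n = 3 each), which did not pass (limma adjusted p = 0.23), and neither did Lcor (0.42).

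PRC1, the complex that ubiquitinates histone H2A, was lower in more of its genes. Of 24 tested, 11 fell, 4 rose and 9 did not pass, a median log2 difference of -0.19. These are 45.8% lower and 16.7% higher, against 30.2% and 31.2% of all genes tested. Genes of CBX proteins, which bind methylated lysine 27, were among those that fell. Cbx8 went down by 1.50, Cbx2 by 0.76 (-0.32 once the GC and length trend was taken out) and Cbx6 by 0.57 (-0.32 as well) on the log2 scale. Cbx8, Cbx2 and Cbx6 kept that direction and the call under every alternative. Cbx7 went down 9.44-fold to 0.221 ± 0.0211 FPKM in AlCl3, against 2.09 ± 0.188 FPKM in control. Cbx7 reached the minimum for testing only through its control level. It was not tested without control 2, without control 3 or with a mean of at least 5 FPKM, and kept the call under the other alternatives. Cbx7 shares 100 exon bases with Apobec3 on the opposite strand, which had 2158 reads in AlCl3 and 2385 in control, against 69 in AlCl3 and 690 in control for Cbx7. Bmi1, a core subunit gene, rose 2.47-fold to 20.6 ± 3.96 FPKM in AlCl3, against 8.32 ± 0.219 FPKM in control (SD, n = 3 each; limma adjusted p = 1.2e-04). The ubiquitin ligase genes split, with Ring1 at 3.37 ± 0.635 FPKM in AlCl3 and 8.77 ± 1.45 FPKM in control, 2.60-fold lower, and Rnf2 at 20.01 ± 2.93 FPKM in AlCl3 and 15.04 ± 1.55 FPKM in control, 1.33-fold higher (limma adjusted p of 1.7e-04 and 0.037). Rnf2 passed narrowly, and neither call was followed under the alternatives.

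**Figure D4:**
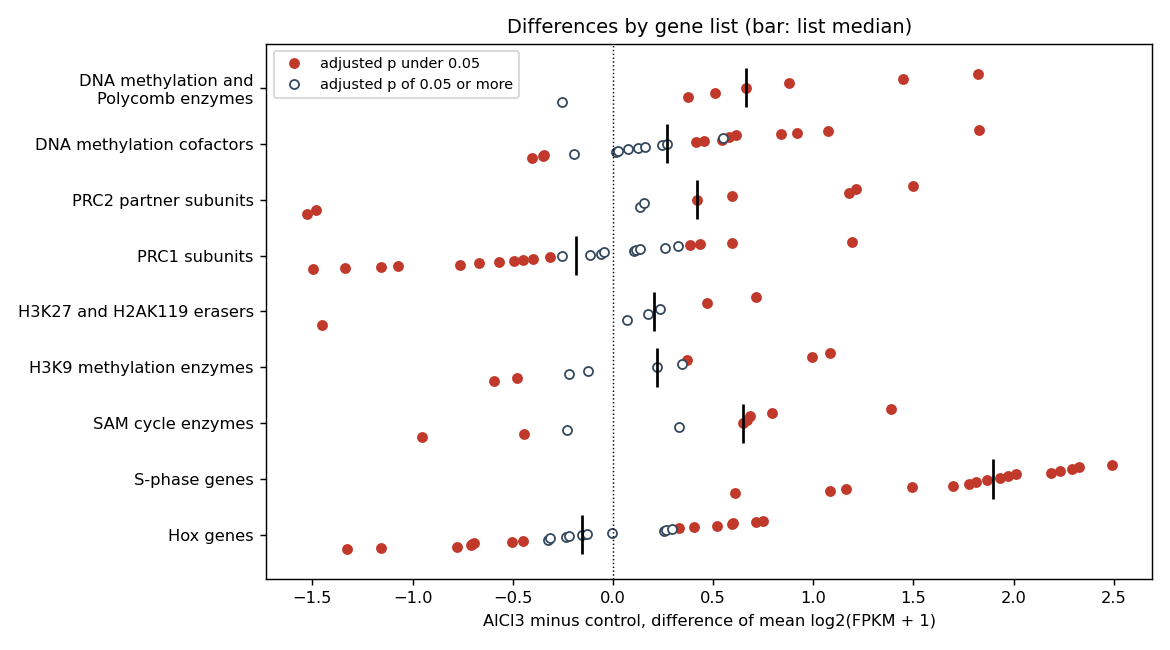
Difference of mean log2(FPKM + 1), AlCl3 minus control (x axis), of each tested gene by list; filled points passed the threshold and bars are list medians. The S-phase genes lie wholly to the right of 0, from 0.61 to 2.49, and the PRC1 genes spread from -1.50 to 1.19.

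Enzymes that remove the Polycomb marks, those that methylate lysine 9 and those that supply the methyl group were also measured. Of 6 erasers tested, 2 rose and 1 fell (median 0.21), where the share that rose, 33.3%, is near the 31.2% of all genes tested and the share that fell is 16.7%, against 30.2%. The lysine 27 demethylase gene Kdm6b fell 3.15-fold to 4.05 ± 0.841 FPKM in AlCl3, against 12.8 ± 1.79 FPKM in control (SD, n = 3 each; limma adjusted p = 5.8e-05), with -0.92 in place of a log2 difference of -1.45 once the GC and length trend was taken out. Asxl1, a partner of the H2A deubiquitinase BAP1, rose by 0.71, and Usp16 by 0.47, a call lost under several alternatives, the largest adjusted p being 0.16; its exons overlap those of Cct8, a gene with far more reads. The related demethylase gene Kdm6a was at 1.95 ± 0.552 FPKM in AlCl3 and 1.79 ± 0.127 FPKM in control, which did not pass (limma adjusted p = 0.72).

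Of 9 lysine 9 enzymes and partners, 3 rose and 2 fell (median 0.22), and these shares, 33.3% and 22.2%, stand beside 31.2% and 30.2% of all genes tested. Suv39h2 and Suv39h1, the methyltransferase genes of constitutive heterochromatin, rose 2.79-fold and 2.18-fold (limma adjusted p of 5.4e-05 and 3.8e-04). The log2 difference of Suv39h2 was 0.73 in place of 1.08 once the GC and length trend was taken out. Suv39h2 shares 357 exon bases with Dclre1c on the opposite strand. Dclre1c had 378 reads in AlCl3 and 269 in control, against 988 in AlCl3 and 372 in control for Suv39h2. Ehmt2 (G9a) and its partner gene Wiz fell by 0.59 and 0.48 on the log2 scale, but once the GC and length trend was taken out Ehmt2 stood at 0.02 (adjusted p = 0.84) and Wiz at -0.12 (0.18), and the Wiz call was also lost under TPM scaling (0.10) and without AlCl3 1 (0.061), control 2 (0.061) or control 3 (0.056).

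Of 9 genes around S-adenosylmethionine, the methyl donor, 5 rose and 2 fell (median 0.65), shares of 55.6% and 22.2%, against 31.2% and 30.2% of all genes tested. Amd1, which diverts it to polyamines and has near-identical annotated copies with fewer reads, rose 2.81-fold. Mat2b, a regulatory subunit gene of its synthesis, rose by a log2 difference of 0.80 (0.53 once the GC and length trend was taken out) and Mtrr by 0.68.

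Genes long known as targets of these systems were taken as a further readout. Of the Hox genes, the best known Polycomb targets, 25 of 37 measured were tested, and 7 rose, 8 fell and 10 did not pass, with a median log2 difference of -0.15; these shares, 28.0% and 32.0%, are near those of all genes. Hoxb9 fell 2.58-fold to 21.6 ± 1.69 FPKM in AlCl3, against 55.6 ± 2.19 FPKM in control, and Hoxb13 fell 2.94-fold to 1.78 ± 0.206 FPKM, against 5.24 ± 0.732 FPKM in control (SD, n = 3 each; limma adjusted p of 1.3e-05 and 7.1e-05). Hoxc10 fell by 0.70 and Hoxd9 by 0.78 on the log2 scale. The Hoxd9 call was lost once the GC and length trend was taken out (-0.13, adjusted p = 0.38). These Hox genes were named for the smallest p of their list, and all of them fell. The 7 that rose are not named, and over the 25 tested the log2 differences ran from -1.33 to 0.75. Of 15 germline genes that DNA methylation silences in somatic cells, 7 were measured and 2 tested, and 0 passed (limma; also 0 at an unadjusted p under 0.05, and 0 of 3 tested with limma-voom on recovered reads). Ddx4, the germ cell helicase gene, was listed at 0 FPKM in all AlCl3 libraries and at a mean of 0.0131 FPKM in control.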

How the data were processed

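The deposited values are FPKM made by the authors, 1 column per library, as read from the name and values of the table. The submitters' processing notes name HISAT2 2.1.0 and the GRCm38 build; counter, annotation, strand setting and filters: not given in the sources used here. Symbols, coordinates, summed exon lengths and GC content came from GENCODE M21 (GRCm38), which held 24300 of 24354 identifiers. With these lengths the FPKM steps gave whole reads, within 0.01 reads in every library, for 98.4% of genes; 382 more did so with a step fitted to the gene, and 7 failed. The 95% intervals come from the limma fits and reflect the scatter among the libraries, whereas the floors of 3 reads cover counting error only. Chi-square per gene between replicates ran from 11.8 to 60.8, so no library was counted as a duplicate.

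Genes with a mean of at least 1 FPKM were tested with limma 3.58.1 (R 4.3.3) (trended variance, no covariates, two-sided) on log2(FPKM + 1), with Benjamini-Hochberg adjustment over 11202 genes and a threshold of 0.05. Differences on this scale understate the change of low genes; folds are ratios of mean FPKM. The step was tested on simulated data. Alternatives changed the pseudocount, filter, scaling, GC and length trend (loess), replicate block and each library; limma-voom on recovered reads, for the same genes and for those with a mean of at least 10 reads, was added after seeing the data. Near-identical copies were sought with blastn at 95% identity over 200 bases. Named genes were the 10 members, the 4 smallest p of each list among genes past the threshold, all tested PRC2 partners and the 3 genes nearest to Uhrf1; Cbx2, Cbx6, Rnf2, Kdm6a, Uhrf2 and Ddx4 were named after their values were seen. Some genes that this rule names are not reported here. The members and lists were chosen with earlier results of these data known.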

Additional observations from a re-analysis of the deposited data

How the results depend on the processing

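Uhrf1, Ezh2, Dnmt1 and Eed kept their direction and passed under all 15 alternatives that tested them, with log2 differences of 1.72 to 2.00, 1.20 to 1.63, 0.73 to 1.07 and 0.46 to 0.78. Suz12 and Tet3 kept their direction and passed in 9 of 15 and 9 of 14. Leaving out 1 library at a time, the number of the 10 genes that rose ran from 4 to 6 and the number that fell was 0 each time; over all genes 5805 to 7067 passed, 2891 to 3607 of them higher and 2872 to 3460 lower. Limma-voom on recovered reads gave 1 gene lower, Dnmt3a, with the same genes and 1 with genes of at least 10 reads on average. Once the GC and length trend was taken out, Rbbp4 stood at -0.0069, Lcor at -0.14 and Ehmt2 at 0.017, against 0.16, 0.14 and -0.59 before. The rises of Hells, Mtf2, Bmi1, Rbbp7 and Amd1 shrank to 1.44, 1.10, 0.80, 0.89 and 1.02, against 1.83, 1.50, 1.19, 1.18 and 1.39 before. Other rises grew, such as Phf19 from 1.21 to 1.41 and Dmap1 from 0.84 to 1.16. By quintile of GC content the median log2 difference ran between 0.30 (lowest GC) and -0.45 (highest GC). TPM scaling moved the median of all genes to 0.13, against 0.03. With a mean of at least 5 FPKM, counts of calls shrank with the lists, beside 2416 higher and 2260 lower of all 7168 genes tested. Calls came to 3 higher and 0 lower of 4 PRC2 partners, since Ezh1 and Phf1, which had fallen, lay below that minimum. Of 3 erasers 1 was higher and 1 lower, and 3 Hox genes were higher and 5 lower. After each gene's group mean was taken off its log2(FPKM + 1) values, the deviations of same-numbered libraries correlated at 0.20, 0.10 and 0.39. Those of differently numbered libraries correlated at -0.36 to 0.17, although AlCl3 2 lay closer to control 1 (0.17) than to control 2. Whether the replicate numbers stand for pairs cannot be told from these values, and the labels do not say. With replicate number as a block 7375 genes passed, against 6869 without it. Of the 7375, 3778 were higher and 3597 lower, with 6 of the 10 genes higher and 0 lower. Planned count-model tests were not run because the deposited unit is FPKM. Tet1 had 1 to 5 reads per library, where a difference was not detectable, and Dnmt3b and Tet2 lay below the minimum for testing.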
